A study of Mus musculus with 12 samples.

Results

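The genes described here encode the proteins of the mitochondrial ribosome. They were taken by name from the deposited gene table, as every gene named Mrpl or Mrps followed by a number, with 1 pseudogene name left out. The rule gave 77 of the 34745 genes in the table, 48 named Mrpl and 29 named Mrps. The samples were whole femoral marrow of 12 male mice of the outbred ICR stock, and RNA was sequenced from 3 mice of each of the 4 groups. Normal mice were given saline by mouth for 1 week and saline injections. The model group received saline by mouth and intraperitoneal cyclophosphamide on days 5 to 7, each day at 80 mg/kg. Cyclophosphamide is an alkylating drug that kills dividing cells, and the model is one of leucopenia, a shortage of white blood cells. The QJSB group received the same cyclophosphamide with Qi-Jing-Sheng-Bai granule, a herbal formula, at 3 g/kg per day for 1 week, and the leucogen group received it with leucogen, a drug used against leucopenia, at 20 mg/kg per day for 1 week. Cyclophosphamide was thus shared by the model, QJSB and leucogen groups, and no group received QJSB or leucogen alone.

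The mitochondrial ribosome sits in the matrix of the mitochondrion and translates the few mRNAs that the mitochondrial genome encodes, all of them for subunits of the respiratory chain and of ATP synthase. Its RNAs come from the mitochondrial genome, while its proteins are encoded in the nucleus, made in the cytosol and imported. The large subunit joins amino acids and holds the exit tunnel of the new chain, and the small subunit reads the mRNA. In bone marrow, early granulocyte and red cell precursors grow and divide with active mitochondria, whereas mature neutrophils hold few mitochondria.

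By the place of the protein, 50 of the genes belong to the large subunit and 26 to the small subunit. Mrps18a and Mrps30 carry a small-subunit name but sit in the large subunit, and Mrps36 is now known as a subunit of the 2-oxoglutarate dehydrogenase complex of the citric acid cycle. All 77 were protein coding in the GENCODE M21 annotation, and they lay on 17 chromosomes, with 10 on chromosome 11 and 8 on chromosome 17. Library totals ran from 11172547 to 18545198 counts. Each of the 77 genes had counts in every library, from 6 to 2320, so that all 77 entered every test, and 76 had at least 10 counts in every library. The exception was Mrps36, whose changes could not be measured with any precision at this depth. An annotated gene of the other strand overlapped 35 of the genes and a gene of the same strand overlapped 13, and reads of such pairs cannot be told apart where the counting did not use strand or gave shared reads to both. Each library came from 1 mouse. The edgeR p-values set the difference between groups against the spread between mice, as estimated with information shared across all genes.

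The composition of the marrow differed strongly between the groups, and these values stand beside every result that follows. The summed level of 14 erythroid marker genes was 18754 to 22411 CPM in normal marrow and 346 to 2143 CPM in model marrow. CPM are counts scaled to a common library size with TMM factors. The 8 markers of promyelocytes, the early granulocyte precursors, summed to 971 to 1215 CPM in normal, 7398 to 10455 CPM in model, 9019 to 9691 CPM in QJSB and 4151 to 5406 CPM in leucogen marrow. The 10 markers of late neutrophils summed to 10180 to 10722 CPM in normal, 2027 to 6367 CPM in model, 3325 to 18742 CPM in QJSB and 14597 to 18679 CPM in leucogen marrow. Markers of mature B cells fell from 833 to 933 CPM in normal to between 5.95 and 25.8 CPM in model marrow. The 17 proliferation genes summed to 8993 to 9262 CPM in normal, 4569 to 5935 CPM in model, 4933 to 5820 CPM in QJSB and 4175 to 5171 CPM in leucogen marrow. Of the marker genes, Vpreb3 and Fcer2a were at 0 in all QJSB libraries, and Vpreb2, Vpreb3 and Cr2 in all leucogen libraries. The abundant noncoding gene Gm26917 took 1.86% ± 0.277 of the counts in normal, 4.14% ± 1.03 in model, 4.15% ± 0.291 in QJSB and 1.52% ± 0.274 in leucogen libraries (SD, n = 3). In whole marrow, more cells that express a gene and more RNA of it per cell cannot be told apart, and the part that these shifts had in the results was not tested.

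The levels of single genes were compared per length, as FPKM, as the authors computed them. FPKM are fragments scaled by a length set for each gene and by library size. The mean over the 12 libraries had a median of 6.06 FPKM over the 77 genes, beside 4.26 FPKM over the 15310 genes that passed the filter on low counts. It ranged 102-fold, from 0.326 FPKM for Mrps36 to 33.3 FPKM for Mrps16, a protein of the core of the small subunit. Of the 77 genes, 59 lay between 1 and 10 FPKM, 17 at 10 FPKM or more and 1 below 1 FPKM. After Mrps16 the highest means were those of Mrpl32 with 22.6 FPKM, Mrpl12 with 21.9 FPKM, Mrpl18 with 21.1 FPKM and Mrpl49 with 18.9 FPKM. Mrpl12 is the stalk protein that binds translation factors and is also known to bind the mitochondrial RNA polymerase. Above Mrps36 at the low end stood Mrpl53 with 1.10 FPKM, Mrpl38 with 1.20 FPKM, Mrps24 with 1.43 FPKM and Mrpl52 with 1.48 FPKM. The proteins of a ribosome are needed in like numbers, whereas these RNA levels were spread over a wide range. With Mrps36 set aside, the range was from 1.10 FPKM for Mrpl53 to 33.3 FPKM for Mrps16. FPKM also depends on the length used, which ran from 566 bases for Mrps16 to 13836 bases for Mrps17. For some genes it was longer than the gene itself, so it was not the length of 1 transcript. Mrps17 spans only chr5:129715497-129722556, and Mrpl53, with a length of 1405 bases, spans only chr6:83109040-83109939. A length set too long lowers the FPKM of a gene, so the order and range above depend on it. The part of length in this spread was not tested. The order at the top differed between the groups. In normal marrow Mrpl49 stood at 24.9 ± 2.76 FPKM and Mrpl12 at 19.4 ± 0.753 FPKM, and in model marrow Mrpl49 stood at 19.8 ± 2.38 FPKM and Mrpl12 at 30.1 ± 2.78 FPKM (SD, n = 3).

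Promoters are shown as a description of the genes, and whether a motif went with a change in level was not tested. RefSeq promoter windows of 300 bases, from 250 before to 50 after the start on GRCm38.p6, were found for 68 of the 77 genes. They were searched on both strands for the letters of motifs that background knowledge ties to genes of mitochondrial proteins, namely CCGGAAG of ETS factors such as GABP, the NRF1 core GCATGCGC and AAGATGGC of YY1. CCGGAAG stood in windows of 25 of the 68 genes (36.8%), beside 9.93% of all 27025 genes with a window. AAGATGGC stood in windows of 12 genes (17.6%), beside 3.19% of all genes, and GCATGCGC in windows of 8 genes (11.8%), beside 3.05% of all genes. The TATA letters TATAAA were less frequent, in 5 genes (7.35%) beside 15.7% of all genes, and the E-box CACGTG stood in 5 genes (7.35%) beside 8.09% of all genes. A match is a description of the letters and not a measured site. The stretches below are from Mrpl32, which is among the genes with the highest FPKM, and from genes described in the comparisons, 30 bases each, 5′ to 3′ on the strand of the gene, with the match in capitals. They show CCGGAAG or its reverse complement in Mrpl27, Mrpl34, Mrpl43 and Mrps27, and the NRF1 core in Mrpl32 and Mrps18b.
Mrpl27, chr11:94653725-94653754, plus strand: gtccgcaagacCCGGAAGtagatctatccc
Mrpl34, chr8:71464878-71464907, plus strand: aactacagctcCCGGAAGgccccgcggcaa
Mrpl43, chr19:45006480-45006509, minus strand: tcgcggtgactCCGGAAGcaaaactctcca
Mrps27, chr13:99344727-99344756, plus strand: tggtaggaccaCTTCCGGcggaggcgggct
Mrpl32, chr13:14613041-14613070, minus strand: gcggacttaacGCATGCGCtcagcccgcgt
Mrps18b, chr17:35916645-35916674, minus strand: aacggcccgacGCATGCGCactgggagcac

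Taken as a sum, the 77 genes were at 1443, 1430.0 and 1363 CPM in the normal libraries and at 1777, 1791 and 1876 CPM in the model libraries. The QJSB libraries held 1897, 1659 and 1549.5 CPM, the first well above the others, and the leucogen libraries held 1385, 1449 and 1459 CPM. The means were 1412 ± 42.8, 1815 ± 53.9, 1702 ± 178 and 1431 ± 40.5 CPM for normal, model, QJSB and leucogen (SD, n = 3). All model and QJSB libraries were above all normal and leucogen libraries, the normal and leucogen libraries overlapped, and so did model and QJSB. As a share of all counts, the 77 genes took 0.138% ± 0.0032 in normal, 0.194% ± 0.0052 in model, 0.171% ± 0.031 in QJSB and 0.136% ± 0.0013 in leucogen libraries (SD, n = 3). The sum over small-subunit genes was 0.422 to 0.478 of that over large-subunit genes in all 12 libraries, with group means of 0.455, 0.456, 0.442 and 0.458 for normal, model, QJSB and leucogen.

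**Figure D1:**
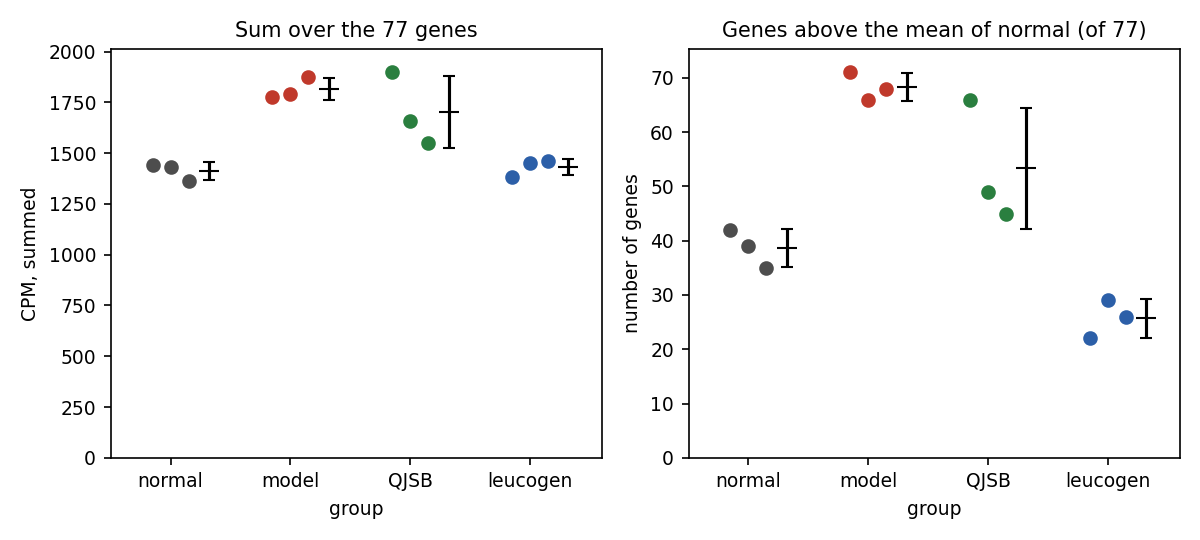
Left, CPM summed over the 77 genes in each library, and right, the number of the 77 genes whose log2 CPM was above the mean of the normal group, by group, with mice as points and the mean ± SD as a bar (n = 3). Model libraries had 66 to 71 genes above the normal mean, QJSB libraries 45 to 66 and leucogen libraries 22 to 29.

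The comparison of model with normal marrow asks what cyclophosphamide did to the marrow transcriptome. Most of the 77 genes stood higher in model marrow, and by a modest amount. With edgeR's quasi-likelihood test and Benjamini-Hochberg adjustment over all genes tested, 24 of the 77 rose (adjusted p under 0.05) and 1 fell, where 19.7% of the 14752 genes tested rose and 21.9% fell. Not counting significance, 72 of the 77 log2 fold changes were above 0, and their median was 0.34, beside 0.02 for all genes tested. The libraries of both groups did not overlap for 38 genes that were higher in model and for 1 that was lower, beside 26.9% and 28.6% of all genes tested. The study's methods name a cutoff of fold change and P without adjustment, used there with DESeq2. It was applied here and below to the edgeR fits. At this cutoff 19 of the 77 were higher and 0 lower, beside 17.9% and 20.5% of all genes tested. An unadjusted p under 0.05 was reached by 37 of the 77, beside 50.2% of all genes tested. With all libraries, the share of the 77 that rose, 31.2%, was above the background, and this excess was lost without normal 1 or normal 2. The median was 0.34 over the large subunit, with 16 of 50 genes risen, and 0.38 over the small subunit, with 8 of 26 risen.

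Mrpl19, a protein of the large subunit, is encoded on the minus strand at chr6:81957851-81965958 (ENSMUSG00000030045, GRCm38). It was at 25.5, 24.3 and 21.5 CPM in normal and at 42.4, 50.8 and 53.9 CPM in model libraries, with no overlap. The log2 fold change was 1.05 ± 0.15 (SE, edgeR adjusted p = 0.00088), or 2.07-fold. Mrpl44, a large-subunit protein with a fold related to ribonuclease III (ENSMUSG00000026248, chr1:79776018-79781445, plus strand), was at 12.2, 12.6 and 11.9 CPM in normal and at 24.1, 19.9 and 27.0 CPM in model libraries. It rose by 0.95 ± 0.17 on the log2 scale (SE, edgeR adjusted p = 0.00236). Mrpl2 and Mrpl16, proteins of the core near the centre where peptide bonds form, rose by 0.90 ± 0.22 and 0.79 ± 0.20 on the log2 scale (SE, edgeR adjusted p = 0.0120 and 0.0144). Mrpl2 was at 4.87 to 5.87 CPM in normal and at 7.52 to 11.1 CPM in model libraries, and Mrpl16 at 6.09 to 7.59 and at 9.86 to 13.7 CPM, so that neither overlapped. The largest fitted change belonged to Mrpl27, another protein of that centre, at 1.081 ± 0.29 (SE, edgeR adjusted p = 0.0180), but its normal libraries were widely spread, at 4.49, 2.61 and 5.52 CPM. Mrpl21 and Mrpl54, both of the large subunit, rose by 0.82 ± 0.19 and 0.89 ± 0.28 on the log2 scale (SE, edgeR adjusted p = 0.00862 and 0.0321). The calls of Mrpl19, Mrpl44 and Mrpl21 held without any 1 library. Adjusted p in edgeR was 0.066 and 0.0615 for Mrpl16 without normal 1 and normal 2, 0.0503 and 0.0549 for Mrpl27 without the same libraries, 0.0562 for Mrpl2 without normal 2, and 0.077 to 0.1 for Mrpl54 without any normal library or model 3.

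The exception was Mrpl49, a large-subunit protein found in mitochondrial but not in bacterial ribosomes (ENSMUSG00000007338, chr19:6053630-6057751, minus strand). It was at 49.6, 41.0 and 40.4 CPM in normal and at 32.2, 27.6 and 35.7 CPM in model libraries and fell by 0.45 ± 0.15 on the log2 scale (SE, edgeR adjusted p = 0.0444). Mrpl49 lies against Syvn1 of the other strand, and its call was lost under 6 of the 11 other settings and without any 1 library but model 3, with adjusted p of up to 0.183 in edgeR. The stalk protein Mrpl12 was at 37.3, 38.0 and 34.8 CPM in normal and at 55.1, 49.9 and 51.8 CPM in model libraries and rose by 0.51 ± 0.12 on the log2 scale (SE, edgeR adjusted p = 0.01). Leaving out a normal library lowered the number of genes that rose to 8 (10.4%) without normal 1, 5 (6.49%) without normal 2 and 11 (14.3%) without normal 3, where 12.4%, 12.2% and 13.3% of all genes tested rose. Without normal 1 or normal 2 the share was thus below the background, while the median stayed between 0.36 and 0.40 over all libraries left out. With total counts in place of TMM factors the median of all genes tested moved to 0.14, the genes called over the whole table went from 2913 higher and 3236 lower to 3718 and 2696, and 37 of the 77 rose with 0 lower. The median of the 77 exceeded that of all genes by 0.32 in both scalings.

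**Figure D2:**
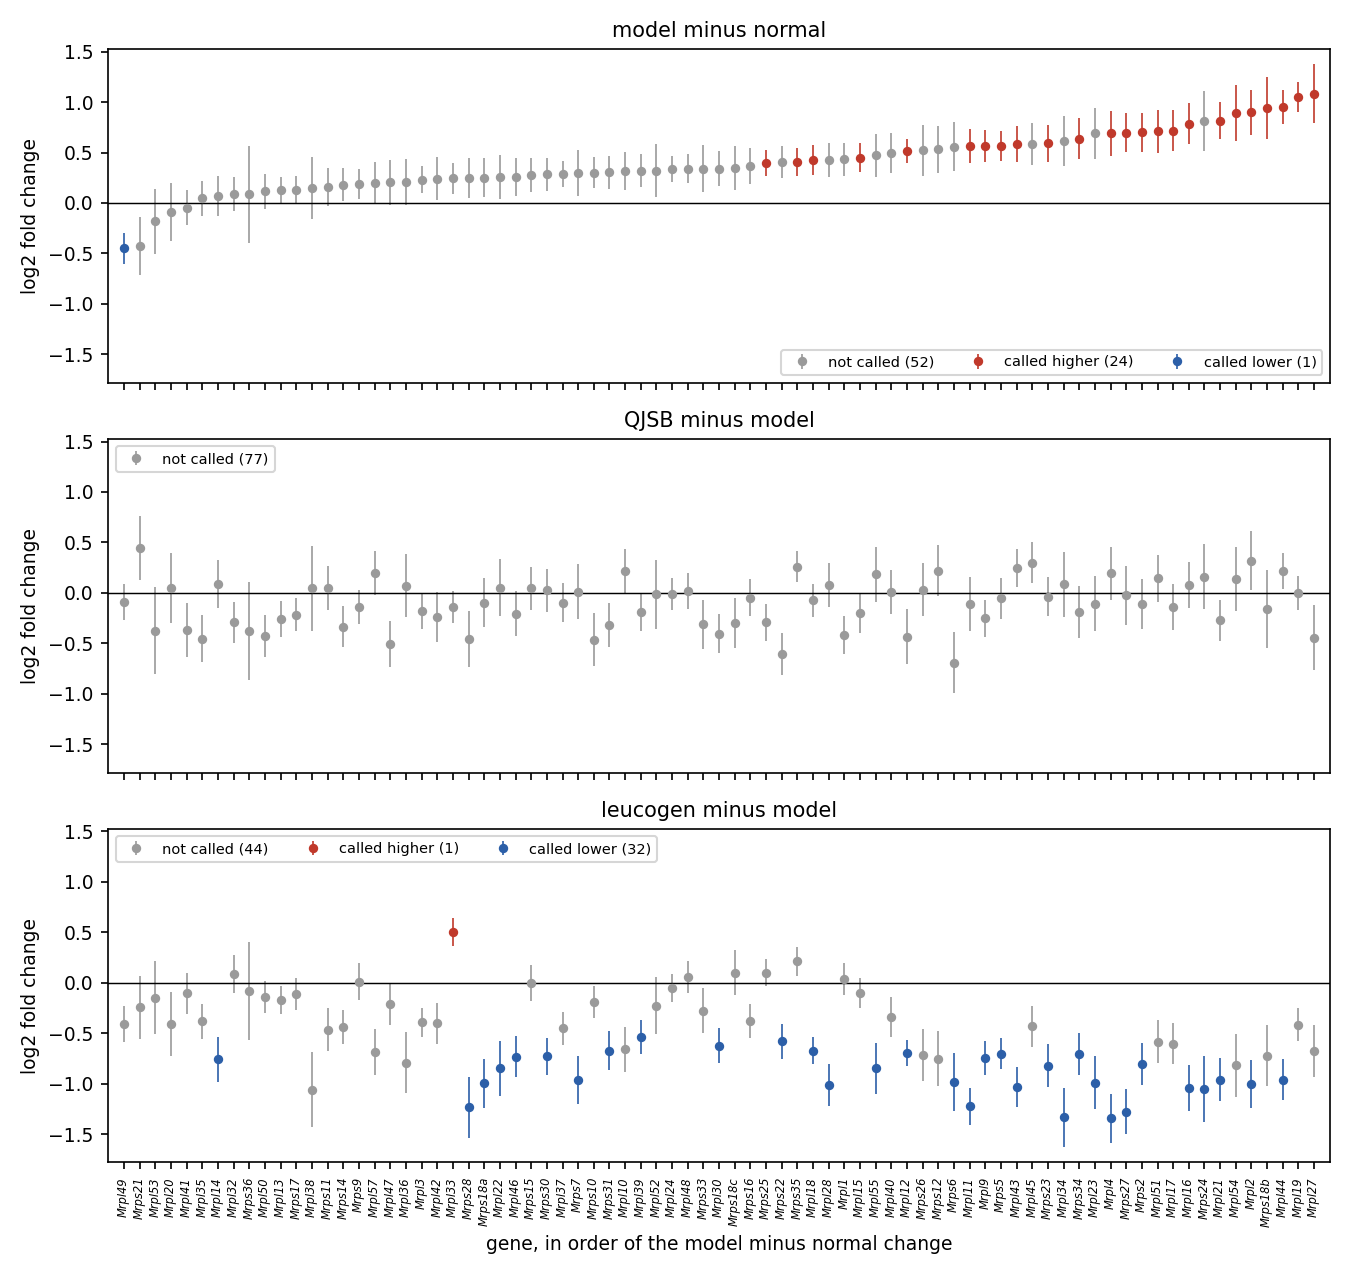
Log2 fold change ± SE of each of the 77 genes in 3 comparisons (edgeR), with genes in the same order in each panel, that of the model minus normal change, and red and blue for adjusted p under 0.05. In the top panel 24 genes were called higher and 1 lower, in the middle panel none was called, and in the bottom panel 1 was called higher and 32 lower.

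The model libraries enter all 3 comparisons of the plot of fold changes, so its panels are not independent. QJSB was compared with model to see what the granule changed in cyclophosphamide-treated marrow. None of the 77 genes passed adjusted p under 0.05 in edgeR, and the lowest value any of them had was 0.77. The same held for the whole table, in which 0% of 14486 genes were called higher and 0% lower, although 723 had an unadjusted p under 0.05, or 4.99%, among them 2 of the 77. DESeq2 called 8 genes in the table and 0 of the 77. The median log2 fold change of the 77 was -0.10, beside -0.02 for all genes tested, and 29 were above 0. The libraries did not overlap for 1 gene that was higher in QJSB and 5 that were lower, beside 4.5% and 5.3% of all genes. At the study's cutoff 0 were higher and 2 lower, beside 1.68% and 1.4%.

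The 3 genes with the largest differences are given as values only. Mrps6, of the platform of the small subunit, was at 4.94, 3.13 and 3.90 CPM in QJSB and at 8.08, 5.18 and 5.89 CPM in model libraries, a log2 difference of -0.69 ± 0.30 (SE). Mrps22, a small-subunit protein known from inherited mitochondrial disease, was at 18.3, 15.2 and 13.0 CPM in QJSB and at 21.3, 26.8 and 21.7 CPM in model libraries, a difference of -0.60 ± 0.21. Mrpl47, near the exit of the peptide tunnel, was at 11.8, 9.32 and 11.1 CPM in QJSB and at 14.6, 18.4 and 12.4 CPM in model libraries, a difference of -0.51 ± 0.23. For each of these genes the libraries of QJSB lay below all of the model group, by a margin that the test did not separate from the spread between mice.

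One QJSB library stood apart in these genes. QJSB 1 was the highest of the 3 QJSB libraries for 57 of the 77 genes and the lowest for 10. It was above the mean of model for 48 genes, whereas QJSB 2 was above it for 26 and QJSB 3 for 19. Mrpl12 was at 58.1 CPM in QJSB 1, above the model libraries, and at 30.7 and 28.6 CPM in QJSB 2 and QJSB 3, below the normal libraries. Mrps18b showed the same order, with 20.8 CPM in QJSB 1 and 11.1 and 9.93 CPM in the others, but its model libraries were as uneven, at 18.7, 8.30 and 19.2 CPM. Without QJSB 1 the median of the 77 in QJSB minus model was -0.24, without QJSB 3 it was 0.02, and still no gene of the 77 was called. Whether libraries of QJSB and model with the same number form pairs is not known. In the fit that took replicate number as a block the 77 genes again had 0 calls, among 18 genes called in the whole table. QJSB 1 also differed in cell type markers. Late neutrophil markers summed to 3325 CPM in QJSB 1 and to 18742 and 12616 CPM in QJSB 2 and QJSB 3. Stromal and endothelial markers summed to 960.2 CPM against 252 and 247 CPM, eosinophil markers to 282 CPM against 112 and 77.1 CPM, and markers of pre-B and pro-B cells to 72.1 CPM against 20.03 and 21.3 CPM. In the model group model 1 stood apart likewise, with 813 CPM of stromal and endothelial markers against 317 and 264 CPM and the fewest late neutrophil markers, 2027 CPM. The part of these shifts in the differences between libraries was not tested.

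**Figure D3:**
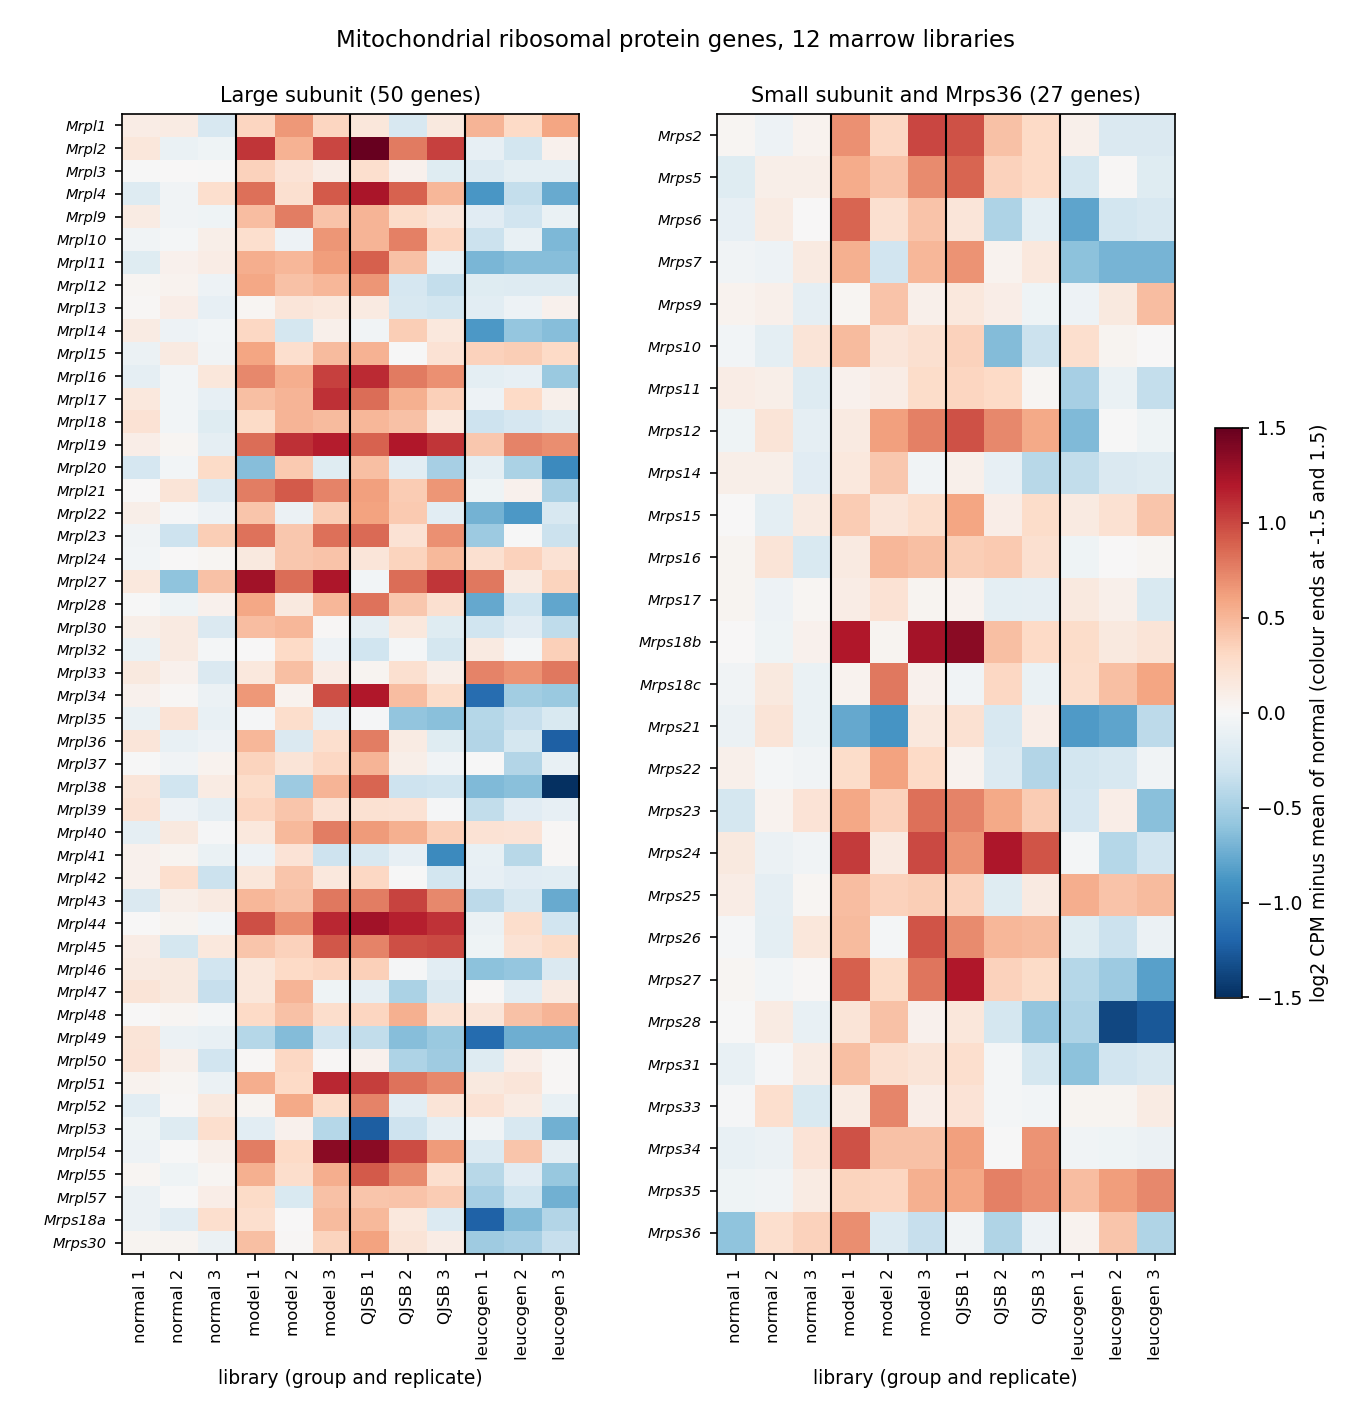
Log2 CPM of each of the 77 genes in each of the 12 libraries minus the mean of the normal group, red above and blue below that mean, with a colour scale that ends at -1.5 and 1.5. The model columns and QJSB 1 are red for most genes, with 66 to 71 genes above the normal mean, and the leucogen columns are blue for most, with 22 to 29 genes above it.

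Leucogen with cyclophosphamide was compared with cyclophosphamide alone. Here 32 of the 77 genes fell and 1 rose (edgeR, adjusted p under 0.05), where 13.3% of 14184 genes tested fell and 13.8% rose. The median log2 fold change of the 77 was -0.62, beside -0.05 for all genes tested, and 8 were above 0. The libraries did not overlap for 51 genes that were lower in leucogen and 1 that was higher, beside 23.8% and 22.2% of all genes. At the study's cutoff 40 were lower and 0 higher, beside 15.6% and 14%. An unadjusted p under 0.05 was reached by 49, beside 41.1%. The median was -0.64 over the large subunit, with 21 of 50 genes fallen, and -0.63 over the small subunit, with 11 of 26 fallen.

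The largest fall was that of Mrpl4, which lines the peptide exit tunnel (ENSMUSG00000003299, chr9:21002737-21008835, plus strand). It was at 6.04, 8.70 and 6.53 CPM in leucogen and at 19.9, 13.2 and 21.2 CPM in model libraries, and fell by 1.34 ± 0.25 on the log2 scale (SE, edgeR adjusted p = 0.00674), or 2.54-fold. Mrpl34, a small protein of the large subunit, was at 3.34, 5.22 and 5.09 CPM against 11.9, 7.80 and 14.8 CPM and fell by 1.33 ± 0.30 (SE, edgeR adjusted p = 0.0129). Mrps27, an RNA-binding protein of the small subunit, was at 8.34, 7.69 and 6.34 CPM against 21.1, 13.8 and 19.7 CPM and fell by 1.28 ± 0.22 (SE, edgeR adjusted p = 0.00591). In all 3 genes each leucogen library was below each model library and below each normal library. Mrpl11, at the base of the stalk, was at 6.04, 6.24 and 6.24 CPM in leucogen and at 14.3, 13.9 and 15.2 CPM in model libraries, a fall by 1.22 ± 0.18 (SE, edgeR adjusted p = 0.00366). Mrps28, Mrpl16, Mrps24 and Mrpl43 fell by 1.24 ± 0.30, 1.05 ± 0.23, 1.05 ± 0.32 and 1.03 ± 0.20 on the log2 scale (SE, edgeR adjusted p = 0.0177, 0.0124, 0.0397 and 0.00826). Mrps24 overlaps Urgcp on the same strand, and its call was lost with the replicate block, with the length or the GC trend removed, and without any 1 library but model 2, with adjusted p of 0.0814 to 0.127 in edgeR. Leaving out leucogen 3 gave an adjusted p of 0.0645 for Mrpl16 and 0.0817 for Mrps28, leaving out leucogen 2 gave 0.0602 for Mrps28, and leaving out leucogen 1 gave 0.0549 for Mrpl34 in edgeR.

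Mrpl33 (ENSMUSG00000106918, chr5:31596935-31664384, plus strand) went the other way. This protein of the large subunit was at 176, 168 and 182 CPM in leucogen libraries and at 117, 143 and 114 CPM in model libraries, and rose by 0.50 ± 0.14 on the log2 scale (SE, edgeR adjusted p = 0.0286). It had the most counts of the 77 genes, with 1311 to 2320 per library, but also a long gene model of 10219 bases that overlaps Rbks on the other strand and Gm43809 on the same strand. Per length it was 13th of the 77, with 12.7 FPKM. Its rise was called in leucogen against normal too, at 0.75 ± 0.11 (SE, edgeR adjusted p = 0.000213), where the normal libraries were at 116, 109.9 and 90.4 CPM. Against model the call was lost with total counts, with either FPKM fit, with the replicate block and without any 1 library but model 2, with adjusted p of 0.0573 to 0.12 in edgeR for the libraries left out.

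Leaving out libraries lowered the number of genes that fell against model to 15 (19.5%) without model 1, 20 (26%) without model 3, 10 (13%) without leucogen 1, 16 (20.8%) without leucogen 2 and 8 (10.4%) without leucogen 3. The share of all genes tested that fell was then 7.48%, 9.35%, 4.57%, 8.14% and 3.38%, so that the calls dropped over the whole table and the share of the 77 stayed above the background each time. The median stayed between -0.64 and -0.50. With total counts the median of all genes tested was -0.22, the calls over the whole table went from 1955 higher and 1886 lower to 1394 and 3111, and 51 of the 77 were lower with 0 higher. The median of the 77 lay below that of all genes by 0.57 with TMM factors and by 0.58 with total counts.

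**Figure D4:**
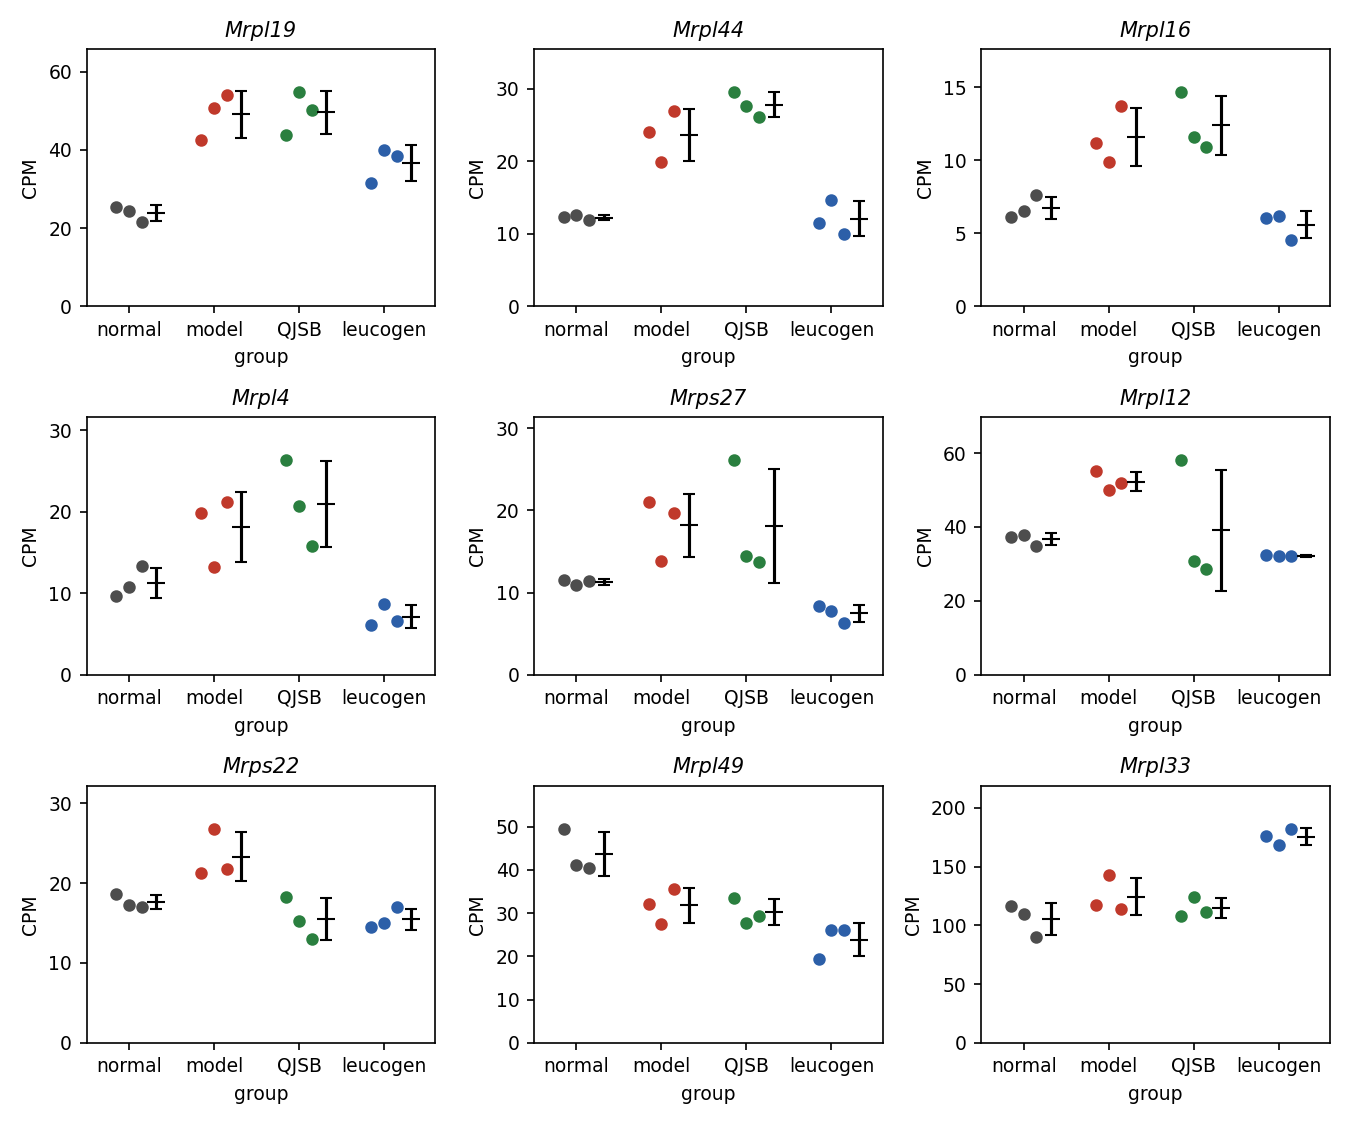
CPM of 9 genes in each mouse, by group, with the mean ± SD (n = 3) beside the points, and each panel has its own axis from 0. Mrpl19, Mrpl44, Mrpl16, Mrps27 and Mrpl12 are higher in every model than in every normal library, Mrpl4 overlaps between them, Mrpl49 is lower in model, and Mrpl33 is highest in leucogen libraries, at 168 to 182 CPM.

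Between the drug groups, QJSB libraries were higher than leucogen libraries for many of the genes. In edgeR, 31 of the 77 were higher in QJSB and 1 lower (adjusted p under 0.05), where 15.5% of 14266 genes tested were higher and 13.8% lower. The median log2 difference was 0.46, beside 0.03 for all genes tested. The libraries did not overlap for 43 genes higher in QJSB and 4 lower, beside 25.6% and 23.2% of all genes. The study's cutoff gave 33 higher and 1 lower, beside 15.8% and 14.8%, and 43 had an unadjusted p under 0.05, beside 42.1%. Mrpl4 led again, with 26.3, 20.7 and 15.8 CPM in QJSB and the leucogen values given above, a difference of 1.54 ± 0.24 (SE, edgeR adjusted p = 0.00432). Mrpl43, a protein particular to mitochondrial ribosomes, was at 22.4, 26.6 and 21.6 CPM in QJSB and at 9.93, 11.02 and 7.68 CPM in leucogen libraries, a difference of 1.28 ± 0.19 (SE, edgeR adjusted p = 0.00380). Mrpl44 was at 29.5, 27.7 and 26.1 CPM against 11.5, 14.7 and 9.99 CPM, a difference of 1.18 ± 0.18 (SE, edgeR adjusted p = 0.00405). In these 3 genes every QJSB library was above every leucogen library. Mrpl34, Mrpl2, Mrps27, Mrps24 and Mrpl16 were higher in QJSB by 1.13 to 1.42 on the log2 scale, and Mrpl33 was lower by a difference of -0.64 ± 0.12 (SE, edgeR adjusted p = 0.00786). Without leucogen 1, 2 or 3 the number of genes higher fell to 13 (16.9%), 20 (26%) or 8 (10.4%), beside 7.49%, 11.1% and 5.21% of all genes tested. Without QJSB 1 the number lower was 5, where 2356 of 14414 genes tested were lower. Without leucogen 3, adjusted p was 0.0586 for Mrps24 and 0.0679 for Mrps27 in edgeR. With the GC trend of each library removed, the differences of Mrpl2, Mrpl34 and Mrps24 were 0.89, 0.96 and 0.85 and were no longer called (edgeR adjusted p = 0.0675, 0.0688 and 0.0669).

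The difference between QJSB and leucogen went with the base composition of the genes, and less closely with their length and count level. Taken from the longest annotated transcript of each gene, the GC content of the 77 genes had a median of 49.7%, from 38.6% to 60.4%. In the 26 genes with the lowest GC content the median log2 difference was -0.04, with 5 genes higher and 1 lower, and in the 26 with the highest it was 0.86, with 15 higher and 0 lower. Spearman's rho between GC content and the difference was 0.59 over the 77 genes and 0.52 over the 14200 tested genes with a GC value, a description across genes that share libraries. With log length and log mean count, rho over the 77 was -0.35 and -0.40, and in leucogen minus model 0.37 and 0.47. In leucogen minus normal it was 0.45 and 0.44, beside -0.40 for GC content. Which of these properties mattered was not tested. Leucogen minus model showed the same with the sign turned, with medians of -0.24 in the 26 lowest and -0.79 in the 26 highest and a rho of -0.57, beside -0.35 over 14117 genes. In model minus normal these medians were closer, at 0.29 and 0.45, with a rho of 0.24, beside 0.13 over 14687 genes. With the GC trend of each library removed, 15 of the 77 (19.5%) were called higher in QJSB than in leucogen in place of 31 (40.3%), and the median was 0.41. The share of all genes tested went from 15.5% to 8.27% at the same time, so the number of calls fell over the whole table as well. In leucogen minus model the median of the 77 was then -0.50.

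**Figure D5:**
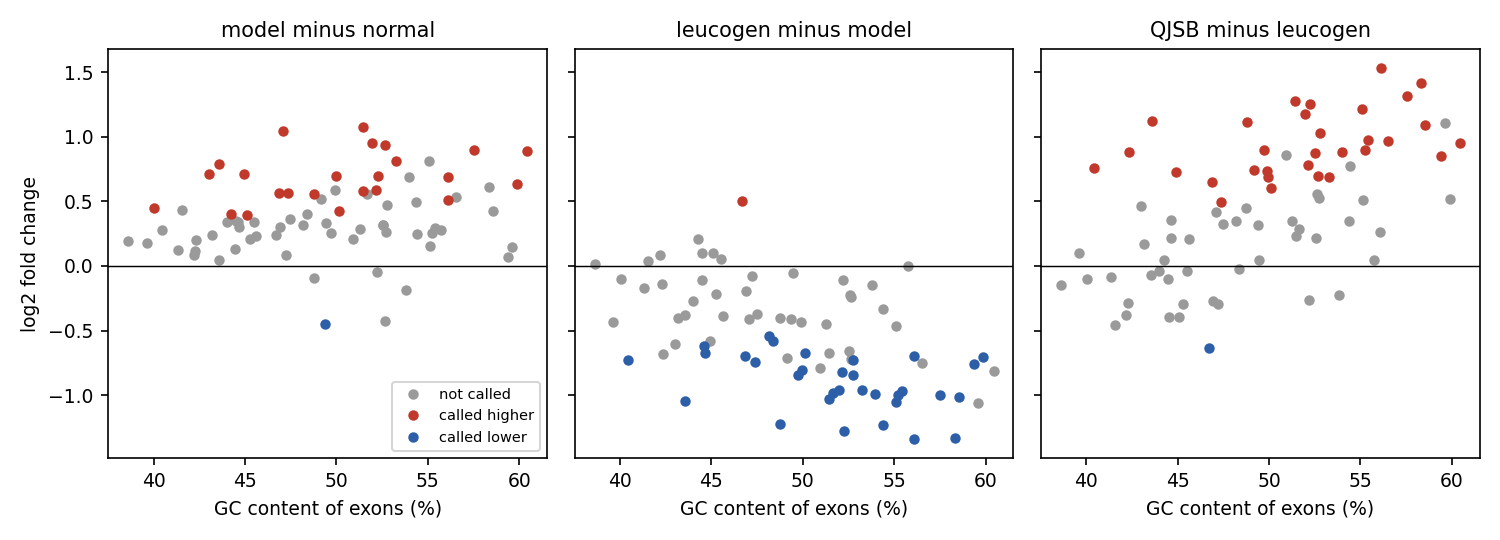
Log2 fold change (edgeR) against GC content in percent for the 77 genes in 3 comparisons, with red and blue for adjusted p under 0.05. GC content is that of the longest transcript of each gene, labelled on the axis as that of exons. In leucogen minus model the genes with a high GC content lie lowest, and in QJSB minus leucogen highest, with a rho of -0.57 and 0.59.

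Each drug group was also compared with normal marrow. In QJSB, 23 of the 77 were higher and 1 lower than in normal (edgeR, adjusted p under 0.05), beside 22.1% and 23.2% of 14817 genes, so with all libraries the share higher, 29.9%, was above the background and the share lower under it. The median was 0.33, beside 0.02 for all genes, and with the GC trend of each library removed it was 0.21. The libraries did not overlap for 31 genes higher and 2 lower, beside 28.1% and 29.9% of all genes. The study's cutoff gave 18 higher and 0 lower, beside 19.9% and 21.7%, and 30 had an unadjusted p under 0.05, beside 53.3%. Mrpl2 with 1.24 ± 0.27, Mrpl44 with 1.20 ± 0.13, Mrpl19 with 1.07 ± 0.14 and Mrpl54 with 1.05 ± 0.23 had the largest log2 fold changes (SE, edgeR adjusted p = 0.00792, 0.00037, 0.000688 and 0.00772). Mrpl45, which tethers the large subunit to the inner membrane, was at 28.3, 33.0 and 33.5 CPM in QJSB and at 18.1, 13.9 and 18.8 CPM in normal libraries, a rise by 0.91 ± 0.16 (SE, edgeR adjusted p = 0.00299). Mrpl49 was lower, at -0.51 ± 0.14 (SE, edgeR adjusted p = 0.0204). The number higher was 11 (14.3%), 10 (13%) or 14 (18.2%) without normal 1, 2 or 3, beside 14.1%, 14.1% and 15.6% of all genes tested, and 14 (18.2%) with the replicate block, beside 17.6%. The share was then near the background, and below it without normal 2. Without QJSB 1 the median was 0.17 and 4 genes were lower, where 4137 of 14991 genes tested were lower. The fall of Mrpl49 was lost without normal 1, QJSB 2 or QJSB 3, with 0 genes lower and adjusted p of 0.0576 to 0.0853 in edgeR.

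In leucogen against normal the genes divided. Of the 77, 9 rose and 14 fell (edgeR, adjusted p under 0.05), beside 25.7% and 26.6% of 14637 genes, shares of the 77 that were not above the background, and the median was -0.17, beside -0.01. The libraries did not overlap for 11 genes higher and 28 lower, beside 29.5% and 32.3% of all genes. The study's cutoff gave 3 higher and 10 lower, beside 18.7% and 20.7%, and 29 had an unadjusted p under 0.05, beside 58%. After Mrpl33 the largest rises were those of Mrpl19 with 0.64 ± 0.12 and of Mrps35, a small-subunit protein, with 0.63 ± 0.11 (SE, edgeR adjusted p = 0.00163 and 0.00107). Mrps35 was at 24.7, 24.98 and 28.3 CPM in normal and at 35.8, 40.0 and 42.9 CPM in leucogen libraries. Mrps25, Mrpl1, Mrps18c, Mrpl48 and Mrpl15 rose by 0.36 to 0.51 on the log2 scale. Among the falls, Mrps28 with -0.97 ± 0.27, Mrpl38 with -0.90 ± 0.29 and Mrpl49 with -0.85 ± 0.14 were the largest (SE, edgeR adjusted p = 0.0125, 0.0264 and 0.000636). Mrps18a, Mrpl34, Mrpl14, Mrps7 and Mrps21 had log2 fold changes of -0.74 to -0.66. Of the genes named here, the calls of Mrpl33, Mrpl19, Mrps35, Mrps25, Mrps28, Mrpl49, Mrpl14 and Mrps7 held without any 1 library. Those of Mrpl1, Mrpl15, Mrpl34, Mrpl38, Mrpl48, Mrps18a, Mrps18c and Mrps21 were each lost without at least 1 library, with adjusted p of up to 0.0856 in edgeR.

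Among genes of known special roles, the 3 relatives named Mrps18 differed. Mrps18b, of the small subunit, was higher in model than in normal by 0.94 ± 0.30 (SE, edgeR adjusted p = 0.0362), but model 2, with 8.30 CPM, lay within the normal range of 7.69 to 8.42 CPM, the FPKM fits did not call it, and adjusted p in edgeR was 0.0857 to 0.106 without any 1 library but model 2. Mrps18a, of the large subunit, was at 13.2, 12.5 and 16.6 CPM in normal and at 5.96, 8.85 and 10.3 CPM in leucogen libraries, and fell there by 0.74 ± 0.21 (SE, edgeR adjusted p = 0.0144). Mrps18c rose in the same comparison, by 0.46 ± 0.12 (SE, edgeR adjusted p = 0.0110), from 22.8, 26.1 and 22.1 CPM to 28.4, 32.3 and 35.6 CPM. Mrps12, of the decoding centre where the codon is read, was called in QJSB against normal, at 0.78 ± 0.20, and in QJSB against leucogen, at 0.97 ± 0.25 (SE, edgeR adjusted p = 0.0159 and 0.0207), with 11.3, 9.55 and 8.59 CPM in QJSB and 5.51, 6.59 and 5.24 CPM in normal libraries. Mrps30, of the large subunit, fell in leucogen against normal by 0.44 ± 0.13 (SE, edgeR adjusted p = 0.0178). Mrpl41 and Mrps36 were not called in any of the 6 comparisons, and their libraries overlapped in each of them, apart from Mrpl41 in QJSB against normal, where the log2 difference was -0.39 ± 0.23 (SE, edgeR adjusted p = 0.204). Mrpl41 was at 17.4 to 19.6 CPM in normal and 15.01 to 21.5 CPM in model libraries, and Mrps36 at 0.507 to 1.10 and 0.635 to 1.44 CPM.

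The other genes of mitochondrial translation were described from the same fits. Of 6 mitoribosome proteins with other names, 1 rose in model against normal and 0 fell, with a median log2 fold change of 0.23. It was Ict1, a peptidyl-tRNA hydrolase built into the large subunit, with 0.66 ± 0.21 (SE, edgeR adjusted p = 0.0342). Of 24 genes for the assembly of the mitochondrial ribosome and the modification of its RNA, 8 rose (33.3%) and 1 fell (4.17%), with a median of 0.28. Among them C1qbp, a matrix protein that binds mitochondrial ribosomes, rose by 0.99 ± 0.21, and Mrm1, an rRNA methyltransferase, fell by 1.28 ± 0.18 (SE, edgeR adjusted p = 0.00526 and 0.000755). Of 15 translation factors 6 rose (40%) and 0 fell, with a median of 0.54, among them the release factor Mtrf1 with 1.00 ± 0.18, the elongation factor Tsfm with 0.93 ± 0.22 and the elongation factor Gfm1 with 0.75 ± 0.16 (SE, edgeR adjusted p = 0.00273, 0.00959 and 0.00643). Of 12 regulators of mitochondrial transcription and biogenesis 3 rose (25%) and 2 fell (16.7%), near the 19.7% and 21.9% of all genes tested, with a median of 0.20. The rises included Ppargc1b and the transcription elongation factor Tefm, and Gabpb1, a subunit of GABP, was among the falls with -0.74 ± 0.22 (SE, edgeR adjusted p = 0.0269).

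In leucogen against model 13.8% of all genes tested rose and 13.3% fell. The assembly genes, 24 in the table, had 0 rises and 9 falls, with a median of -0.49. The 15 translation factors had 0 and 5, with a median of -0.25. C1qbp fell by 1.39 ± 0.25, the assembly helicase Ddx28 by 1.18 ± 0.23 and the elongation factor Tufm by 1.28 ± 0.31 on the log2 scale (SE, edgeR adjusted p = 0.00631, 0.00840 and 0.0179). Of the regulators, 13 in the table, 1 rose and 2 fell, with a median of -0.09 and a share fallen near the background. Polrmt, the mitochondrial RNA polymerase, fell by 1.27 ± 0.29, and the transcription factor Nrf1 rose by 0.57 ± 0.13 (SE, edgeR adjusted p = 0.0136 and 0.0150). The 6 mitoribosome proteins with other names had 0 rises and 1 fall, a share fallen near the background. The fall was that of Gadd45gip1, by 0.85 ± 0.24 (SE, edgeR adjusted p = 0.0278).

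Related gene families were described in the same way. Of the 13 mRNAs of the mitochondrial genome, the templates of this ribosome, 2 rose in model against normal, with a median of 0.33, and 1 rose and 1 fell in leucogen against model, with a median of -0.13. Of 82 cytosolic ribosomal protein genes tested 29 rose and 0 fell in model, with a median of 0.43, and 0 rose and 29 fell in leucogen against model, with a median of -0.37. Of 36 nuclear genes for complex I of the respiratory chain, whose mitochondrial partners this ribosome makes, 10 rose and 0 fell in model, with a median of 0.32, and 0 rose and 16 fell in leucogen against model, with a median of -0.61. Against the 19.7% of all genes that rose in model, the shares were 35.4% for cytosolic ribosomal proteins, 27.8% for complex I and 15.4% for the mitochondrial mRNAs, the last below the background. In leucogen against model 35.4% of the cytosolic ribosomal protein genes and 44.4% of the complex I genes fell, beside 13.3% of all genes, whereas the mitochondrial mRNAs had 7.69% in each direction, under the background. In QJSB against leucogen 15.5% of all genes tested were higher and 13.8% lower. The higher and lower calls were 8 and 3 for assembly genes and 3 and 1 for translation factors. They were 1 and 2 for mitoribosome proteins with other names, 1 and 1 for regulators and 1 and 1 for mRNAs of the mitochondrial genome. Cytosolic ribosomal proteins had 28 and 4, and complex I had 17 and 1. In that order the lists held 24, 15, 6, 13, 13, 85 and 36 genes of the deposited table. The shares of the regulators and of the mitochondrial mRNAs were under the background in both directions. In QJSB against model every one of these lists had 0 calls by edgeR.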

How the data were processed

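Marrow RNA of 12 mice was depleted of ribosomal RNA and sequenced in strand-specific libraries. Reads were filtered (Seqtk) and aligned to GRCm38.p4, or mm10, by the authors using HISAT2. The program that counted reads and the version of the annotation are not given in the sources used here. The deposited table holds whole-number counts per gene without normalization, and FPKM that the authors computed. Their formula names mapped fragments, transcript length and total fragments, but the lengths implied by the table exceed the span of some genes. The columns are headed Blank, Model, Positive and Stilbene, read as normal, model, leucogen and QJSB by meaning and elimination. As a check, mean normalised counts listed in a supplement of the study were matched within 1% by 298 of 298, 297 of 297 and 300 of 300 genes under this reading, and by at most 10 under any other. The reading itself used the headings alone, and 0 columns of samples were left unused.

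Counts were tested with edgeR 4.0.16 in R 4.3.3 (TMM factors, filterByExpr, robust glmQLFit and glmQLFTest, Benjamini-Hochberg adjustment), in 6 fits of 2 groups each. Log2 CPM used a prior count of 2. GC content came from the longest GENCODE M21 transcript of each gene, and lengths from counts over FPKM. The alternatives were DESeq2 1.42.0, DESeq2 size factors, total counts, a minimum of 10 counts in every library, no filter, 1 fit of all 12 libraries, a replicate block, limma-trend (limma 3.58.1) on log2(FPKM + 0.1) and log2(FPKM + 1), the length or the GC trend of each library removed, and each library left out in turn. The scripts were tested on simulated counts with known changes. Between replicates, counts differed by 10.9 to 107 times the sampling variance, so no library was a copy of another of its group. Libraries of different groups were not compared in this way.

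Deviations from the group means of same-numbered QJSB and model libraries correlated by 0.426, 0.123 and 0.107 over 15310 genes. Model 1 and QJSB 1, the pair at 0.426, also stood apart in cell type markers. Between QJSB and leucogen the values were 0.181, 0.134 and 0.0782, and in the remaining comparisons they ran from -0.122 to 0.106. Libraries with different numbers were not compared, so these values cannot show that the numbers pair the mice.

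The members and lists were chosen with earlier results of these data known. Genes named are, per comparison, the 8 largest rises and falls past adjusted p under 0.05 (with fewer than 3 calls, the 3 largest differences as values), calls against the main direction, the 5 highest and 5 lowest by FPKM, and 10 genes of known roles. Of other lists, genes are named from the 3 largest called changes. From the cytosolic ribosomal list 7 genes of Rps6k kinases, which its name pattern also took, were left out.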

Additional observations from a re-analysis of the deposited data

How the results depend on the processing

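In model minus normal, the number of genes higher was 37 with total counts and with either FPKM fit. The whole table then had 3718 of 14752, and 3642 and 3618 of 16656, genes higher, against 2913 of 14752 in the main fit. The number lower was 0 with total counts, no filter, DESeq2, the replicate block and either FPKM fit. In these fits 2696 to 3405 genes of the whole table were lower. The median was 0.46 with total counts and 0.45 on log2(FPKM + 0.1). Leucogen minus model had 51 lower with total counts and on log2(FPKM + 0.1), 50 on log2(FPKM + 1), and 0 higher in these 3, with medians of -0.80 for total counts and -0.77 on log2(FPKM + 0.1). The median was -0.55 with the length trend and -0.50 with the GC trend removed. With the replicate block there were 20 lower and 0 higher, where 1241 and 1585 of 14184 genes tested were lower and higher. In QJSB minus leucogen, 15 (19.5%, beside 8.27% of all genes tested) were higher with the GC trend removed. With the length trend removed and with the replicate block 2 were lower, beside 1926 and 2180 of 14266 genes tested. QJSB minus normal had 14 higher with the replicate block, beside 2613 of 14817 genes tested, a share near the background. In leucogen minus normal, the median was -0.23 with total counts, -0.21 with at least 10 counts in every library and -0.22 on log2(FPKM + 0.1). The number lower was 7 with all 12 libraries in 1 fit, beside 3215 of 15310 genes tested. It was 22 in either FPKM fit, beside 4524 and 4528 of 16518, a share near the background. The causes were not tested.

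Leaving out 1 library gave 5 to 33 genes higher, 0 to 2 lower and a median of 0.36 to 0.40 in model minus normal, where 5 is 6.49% beside 12.2% of all genes tested and 33 is 42.9% beside 21.6%. It gave 0 to 0 higher, 0 to 0 lower and a median of -0.24 to 0.02 in QJSB minus model. It gave 0 to 1 higher, 8 to 36 lower and a median of -0.64 to -0.50 in leucogen minus model. Of all genes, 14273 to 14680 were tested in these fits, with 743 to 2436 higher and 496 to 2153 lower. In QJSB minus leucogen, leaving out 1 library gave 8 to 27 higher, 1 to 5 lower and a median of 0.36 to 0.56. There 769 to 2412 of 14414 to 14776 genes tested were higher and 776 to 2356 lower. For QJSB minus normal the ranges were 10 to 25 higher, 0 to 4 lower and 0.17 to 0.39, and for leucogen minus normal 6 to 9 higher, 10 to 17 lower and -0.18 to -0.15. With 1 library out, the other group and the remaining pair carry the estimate of spread.

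The replicate block called 0 of the 77 genes in QJSB minus model, with a median of -0.11. In no comparison is it known that libraries with the same number form pairs. Of the settings tried for genes named for their change in a comparison, 847 kept the direction and side of the threshold. Another 88 kept the direction and lost the call, and 0 turned. Genes named only for FPKM or known roles, such as Mrpl12, Mrps12 and Mrps30, are not in these counts. With 3 mice a group and counts from 6 in the lowest gene, changes of genes such as Mrps36 were not measurable.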
